A study of Mus musculus with 12 samples.

Results

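The genes described here are 10 members of the ID and TGF-β/BMP signalling system: the ID genes Id1, Id2 and Id3, the inhibitory SMAD genes Smad6 and Smad7, the ligand genes Tgfb1 and Tgfb2, and the receptor genes Tgfbr1, Tgfbr2 and Bmpr2. They are 10 of the 57010 genes of the count table, were taken by their symbols, and all 10 passed the filter on low counts that left 15943 genes for testing. They were selected on measured values as well as on function: earlier results of these counts were in view, among them that Id1 was lower in Tim4KO than in WT cells after tumour challenge. That comparison is therefore given for the members as values and fold changes without p-values.

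The cells were large peritoneal macrophages, which live long-term in the peritoneal cavity, sorted from female mice as F4/80-high and MHCII-low cells. WT and Tim4KO mice were studied naive and after ID8 challenge, which gave 4 groups of 3 libraries each (12 in all). Tim4KO mice lack Tim4, a phosphatidylserine receptor of these macrophages encoded by Timd4, and the kind of allele is not given in the sources used here. ID8 mice had received, at 8 weeks of age, an intraperitoneal injection of ID8 mouse ovarian tumour cells carrying ZsGreen and OVA, and their macrophages were sorted 24 h later. The sort kept ZsGreen-positive macrophages from challenged mice, so exposure to tumour cells and uptake of tumour material cannot be told apart. The age of the naive mice is not given, and nothing in the labels says that the libraries of a group came from separate mice, so p-values measure the spread between these libraries.

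As background, ligands of the TGF-β family bind pairs of type I and type II receptor kinases, which phosphorylate receptor-regulated SMAD proteins. These join SMAD4 in the nucleus and act on target genes, among them the ID genes downstream of BMP and the feedback inhibitors Smad6 and Smad7. ID proteins hold a helix-loop-helix domain without a DNA-binding region and keep E proteins, encoded by Tcf3, Tcf4 and Tcf12, from binding DNA at E-box motifs. TGF-β is known as a signal of tissue macrophage identity, and ID proteins are known for their part in the identity of several resident macrophage populations.

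Promoter sequences of members that passed a test below (Id2, which rose, and Tgfb2, which fell) and of an ID gene that did not (Id3) are printed to show the letters these factors are known to bind. Each covers 250 bases before to 50 bases after the RefSeq start site in GRCm38.p6, written 5′ to 3′ on the gene's strand. Capitals mark, on either strand, the E-box CANNTG, the SMAD box CAGAC and the GC-rich SMAD motif GGCGCC. These motifs occur in 72.3%, 49.6% and 11.9% of 32851 promoters of the same length, and no match overlapped another in the 3 printed sequences. The Id2 promoter lies at chr12:25096043-25096342 on the minus strand, the Id3 promoter at chr4:136143572-136143871 on the plus strand and the Tgfb2 promoter at chr1:186705940-186706239 on the minus strand.
Id2: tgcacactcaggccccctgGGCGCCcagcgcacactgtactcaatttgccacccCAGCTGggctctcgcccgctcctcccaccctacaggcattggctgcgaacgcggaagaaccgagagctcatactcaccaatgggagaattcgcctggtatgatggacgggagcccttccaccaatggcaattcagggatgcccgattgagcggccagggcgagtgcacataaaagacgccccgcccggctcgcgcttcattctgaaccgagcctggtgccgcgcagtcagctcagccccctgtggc
Id3: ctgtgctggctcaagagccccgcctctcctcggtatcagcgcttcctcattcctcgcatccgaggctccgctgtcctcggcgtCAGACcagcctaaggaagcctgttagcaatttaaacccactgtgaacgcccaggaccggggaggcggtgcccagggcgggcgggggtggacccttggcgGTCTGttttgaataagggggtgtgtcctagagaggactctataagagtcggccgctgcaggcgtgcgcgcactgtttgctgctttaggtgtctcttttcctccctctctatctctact
Tgfb2: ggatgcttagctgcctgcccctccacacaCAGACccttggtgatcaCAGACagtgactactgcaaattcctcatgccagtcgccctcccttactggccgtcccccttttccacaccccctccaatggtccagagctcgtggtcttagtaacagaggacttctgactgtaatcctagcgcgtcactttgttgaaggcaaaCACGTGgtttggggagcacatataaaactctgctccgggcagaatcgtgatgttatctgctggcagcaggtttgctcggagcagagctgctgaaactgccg
The Id2 window held 1 E-box and 1 GGCGCC match, the Id3 window 2 SMAD boxes, and the Tgfb2 window 1 E-box and 2 SMAD boxes. A RefSeq promoter was matched for 8 of the 10 members, all but Id1 and Smad7.

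Library totals ran from 7358559 to 23170244 counts, and 3 counts corresponded to 0.137 to 0.399 CPM (the count scaled to a common library total with TMM factors). Timd4 stood at 882 to 1489 CPM in the 6 WT libraries and at 1.38 to 7.71 CPM in the 6 Tim4KO libraries. All 10 markers of large peritoneal macrophages were above 1 CPM in at least 1 library of every group, with summed levels of 14811 to 22161 CPM. Library WT ID8 3 stood apart from the other WT ID8 libraries, with chi-square values (divided by their degrees of freedom) of 46.5 and 78.6 against 5.04 to 21.6 for the other pairs within groups. It also had the lowest background, taken as the summed level of olfactory and vomeronasal receptor genes, at 5.75 CPM against up to 755 CPM in WT naive 1. Neutrophil markers summed to 5.94 to 9.29 CPM in naive and 11.6 to 31.9 CPM in ID8 libraries, and mast cell markers to 13.3 to 39 CPM and 2.3 to 9.53 CPM. The neutrophil markers Ly6g and Mpo were below 1 CPM in every library. Megakaryocyte and platelet markers summed to 1549 to 2168 CPM in naive and 2389 to 3120 CPM in ID8 libraries. Of these Ppbp, Gp9 and Gp1bb were below 1 CPM in every library. Markers of small peritoneal macrophages and dendritic cells summed to 106 to 141 CPM in naive and 34.3 to 85.7 CPM in ID8 libraries, and those of B cells to 8.34 to 21.8 CPM and 3.44 to 8.52 CPM. Epithelial markers, which tumour cells would carry, summed to 5.81 to 25.3 CPM in naive and 1.6 to 5.72 CPM in ID8 libraries. In WT ID8 cells 9 of the 10 epithelial markers were below 1 CPM in every library, and in Tim4KO ID8 cells 8 were. These markers moved with challenge. The background was 295 to 755 CPM in WT naive and 5.75 to 226 CPM in WT ID8 libraries. In Tim4KO it was 241 to 405 CPM in naive and 36.8 to 324 CPM in ID8 libraries, ranges that overlapped. The part of the markers and the background in the challenge differences below was not tested, apart from a fit with the background as a covariate. Since the WT ranges did not overlap, that fit cannot fully tell background and challenge apart in WT.

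Tumour challenge was followed in WT macrophages by higher Id1 and Id2 and lower Tgfb2 and Smad7. In Tim4KO macrophages Tgfb2 and Smad7 were lower as well, while Id1 and Id2 missed the threshold. In WT, 4 of the 10 members passed the edgeR test at an adjusted p under 0.05, beside 31.8% of all tested genes. Of these 2 were higher (19.5% of all genes) and 2 lower (12.3% of all genes). Id1, among the higher ones, was known from a difference that used the same WT ID8 libraries. The WT count is therefore not independent of the choice of members. In Tim4KO, 2 members passed, beside 16.6% of all tested genes, with 0 higher (11.5% of all genes) and 2 lower (5.06% of all genes). The known Id1 difference used the Tim4KO ID8 libraries as well, so the Tim4KO count is not independent of that choice either. The median log2 difference of the members was -0.28 in WT and -0.26 in Tim4KO, against -0.04 and -0.05 over all tested genes. In these bulk libraries fewer cells of a type and less RNA per cell cannot be told apart. Groups of 3 libraries can fail to overlap without a difference between them. How many of all tested genes did so was not counted, so statements on overlap below are descriptions.

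Id1 (ENSMUSG00000042745, chromosome 2) encodes the ID protein best known as a direct target of BMP and SMAD1/5 signalling. It measured 6.93, 10.1 and 7.89 CPM in WT naive libraries 1 to 3 and 10.6, 7.86 and 6.59 CPM in the Tim4KO naive libraries. After challenge it measured 28.8, 43.4 and 30 CPM in WT and 10.1, 14.2 and 9.34 CPM in Tim4KO. All 3 WT ID8 libraries lay above every other library, and the Tim4KO ID8 libraries overlapped the naive ones. In WT the group mean rose from 8.3 ± 1.61 to 34.1 ± 8.1 CPM (SD, n = 3), a log2 difference of 2.03 (SE 0.24) or 4.08-fold, with an edgeR adjusted p of 3.44e-05. The same WT ID8 libraries entered the genotype comparison from which Id1 was known, so this p is not independent of the choice of Id1. The call held with each of the 12 libraries left out in turn and under all 8 other settings, between 1.79 and 2.24 on the log2 scale. In Tim4KO the means were 8.34 ± 2.04 and 11.2 ± 2.63 CPM (SD, n = 3), a log2 difference of 0.42 (SE 0.24, edgeR adjusted p = 0.251). The Tim4KO ID8 libraries entered that genotype comparison too, so this p is not independent of the choice of Id1 either.

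Id2 (ENSMUSG00000020644, chromosome 12), known in the immune system for its part in innate lymphoid and dendritic cell development, was the most abundant of the ID transcripts. Its naive levels were 223, 253 and 198 CPM in WT and 311, 202 and 188 CPM in Tim4KO. After challenge they were 327, 382 and 623 CPM in WT and 373, 287 and 385 CPM in Tim4KO. The WT groups did not overlap, WT ID8 3 was the highest of all libraries, and the Tim4KO groups overlapped through Tim4KO naive 1. Id2 rose in WT by 0.98 on the log2 scale (SE 0.24, edgeR adjusted p = 0.00799), from 225 ± 27.6 to 444 ± 158 CPM (SD, n = 3). With the background level of each library as a covariate this difference was 0.46 and missed the threshold (adjusted p = 0.185). The Tim4KO difference was 0.58 (SE 0.24, edgeR adjusted p = 0.122). It passed without Tim4KO naive 1 (0.86, adjusted p = 0.0256) and without WT ID8 3 (0.60, adjusted p = 0.0171), with no filter on low counts (0.63, adjusted p = 0.00269) and in a fit of the 2 groups alone (0.55, adjusted p = 0.0477).

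Id3 (ENSMUSG00000007872, chromosome 4), the ID gene known for its part in liver-resident macrophages, was at 4.41 to 6.15 CPM in the naive and 2.88 to 4.81 CPM in the ID8 libraries. Its log2 difference after challenge was -0.46 in WT (SE 0.25, edgeR adjusted p = 0.165) and -0.47 in Tim4KO (SE 0.25, adjusted p = 0.221). The Tim4KO groups did not overlap, at 4.66 to 6.15 CPM in naive and 3.46 to 4.38 CPM in ID8 cells. Its fitted differences thus lay below 0 where those of Id1 and Id2 lay above it. With upper-quartile scaling the WT difference was -0.71 and passed (adjusted p = 0.0366), a scaling that moved the median of all genes from -0.04 to -0.28 in WT.

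**Figure D1:**
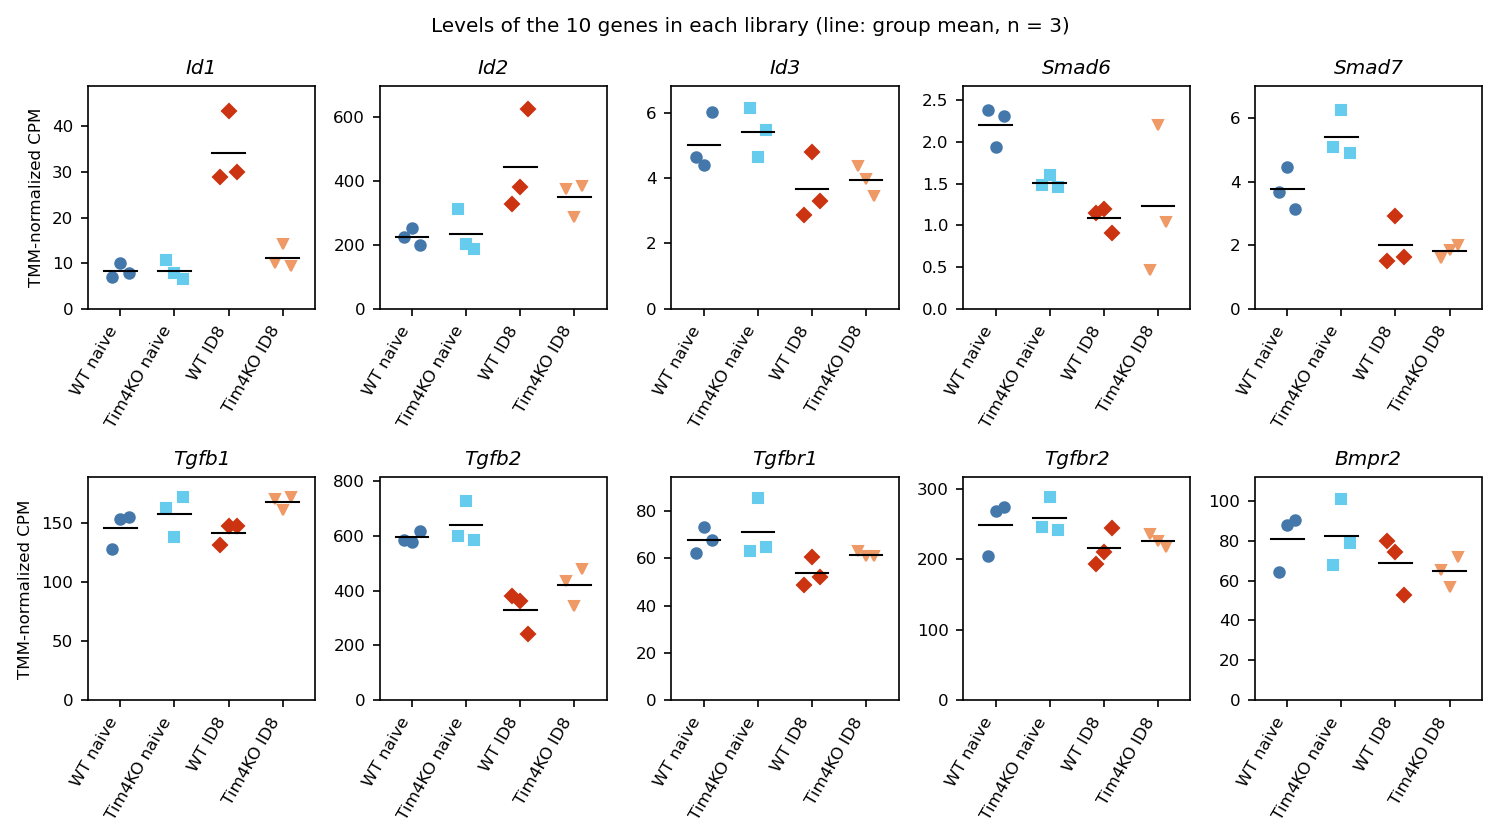
TMM-normalized CPM (linear axis from 0) of the 10 genes, 1 panel per gene, in the 3 libraries of each of the 4 groups, with a line at the group mean. Id1 in the WT ID8 libraries (28.8 to 43.4 CPM) lies above every other library, and Tgfb2 in both ID8 groups (242 to 479 CPM) lies below all naive libraries.

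Levels between genes were compared as CPM per kb of exon. The length was the union of all annotated exons of a gene, 1160 bases for Id1, 17983 for Bmpr2 and 27382 for Tcf4. A long union lowers the level per kb, so the order here and the ID to E-protein ratio below depend on it. Before this division Bmpr2 was at 80.8 CPM and Id1 at 8.3 CPM in WT naive cells. In WT naive cells Tgfb2 (103 ± 3.46) and Id2 (92.2 ± 11.3) were highest and within their spread of each other. Tgfbr2 (30.4 ± 4.66) and Tgfb1 (28.8 ± 2.93) followed, also within their spread, then Tgfbr1 (10.4 ± 0.87) and Id1 (7.16 ± 1.39). Bmpr2 (4.5 ± 0.808), Id3 (2.81 ± 0.481), Smad7 (0.833 ± 0.148) and Smad6 (0.689 ± 0.0744) came last, the last pair within their spread. In WT ID8 cells Id2 (182 ± 64.6) was above Tgfb2 (56.7 ± 13), and Id1 (29.4 ± 6.99), Tgfb1 (28.1 ± 1.9) and Tgfbr2 (26.4 ± 3.13) lay within their spread of each other. In Tim4KO ID8 cells Id2 stood at 143 ± 21.9, Tgfb2 at 72.4 ± 12.1, and Id1 (9.66 ± 2.27) was within its spread of Tgfbr1 (9.42 ± 0.192); each value is mean ± SD, n = 3. The place of Id1 in the order thus moved up to that of Tgfb1 and Tgfbr2 in WT ID8 cells.

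Id2 made up most of the summed ID level per kb in every library, from 79.6% to 94.1% of Id1 to Id3 together. The Id1 share was 5.97% to 7.56% in the 6 naive libraries, 15.4%, 19% and 9.13% in WT ID8 libraries 1 to 3, and 4.79% to 9.26% in the Tim4KO ID8 libraries. The WT ID8 and Tim4KO ID8 shares overlapped through WT ID8 3, in which Id2 was highest. The summed ID level was 102 ± 11.9 and 106 ± 29.7 CPM per kb in WT and Tim4KO naive cells and 214 ± 63.1 and 155 ± 19.6 CPM per kb in the challenged cells of the same genotypes (SD, n = 3). The summed E-protein level (Tcf3, Tcf4 and Tcf12) stayed between 19.8 and 26.2 CPM per kb over the 12 libraries. The ratio of ID to E-protein level was 4.49 ± 0.603 and 4.46 ± 1.31 in WT and Tim4KO naive cells and 9.9 ± 3.9 and 7.51 ± 0.986 in WT and Tim4KO ID8 cells. Every ID8 library (6.41 to 14.3) lay above every naive library (3.51 to 5.95). These sums hold the genes chosen for their pattern and are descriptions without a test.

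**Figure D2:**
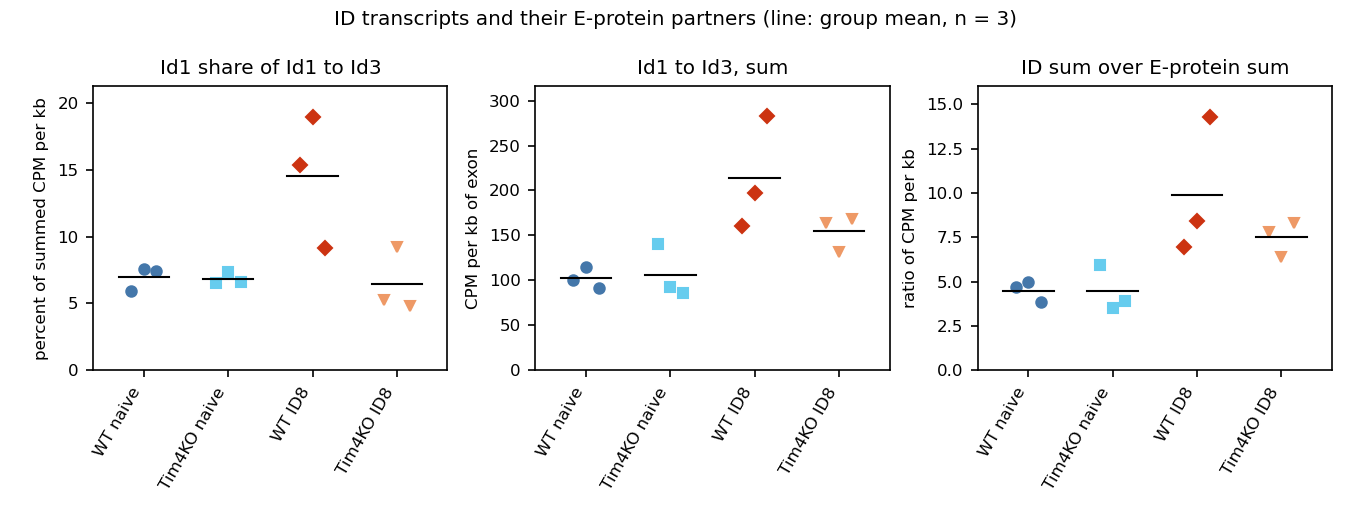
Id1 share of the summed Id1 to Id3 level (percent), summed Id1 to Id3 level (CPM per kb of exon) and its ratio to the summed Tcf3, Tcf4 and Tcf12 level, on linear axes from 0, for each library with a line at the group mean. The ratio is 6.41 to 14.3 in the ID8 libraries and 3.51 to 5.95 in the naive ones, while the Id1 share overlaps between groups through WT ID8 3 (9.13%).

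Among the E-protein genes Tcf4 fell in both genotypes. It went from 123 ± 10.2 to 79.7 ± 15.5 CPM in WT (log2 difference -0.62, SE 0.15, edgeR adjusted p = 0.00701) and from 125 ± 15.4 to 70.6 ± 7.26 CPM in Tim4KO (-0.83, adjusted p = 0.00232; SD, n = 3). The naive libraries (111 to 141 CPM) and the ID8 libraries (61.9 to 88.8 CPM) did not overlap. The WT call was lost with the background covariate (-0.45, adjusted p = 0.103). Tcf3 differed by 0.11 in WT and -0.04 in Tim4KO (adjusted p = 0.502 and 0.859) and Tcf12 by -0.06 and -0.27 (adjusted p = 0.745 and 0.167). The Tim4KO difference of Tcf12 passed with upper-quartile scaling (-0.39, adjusted p = 0.0356) and with DESeq2 (-0.32, adjusted p = 0.0464).

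The inhibitory SMADs block TGF-β family signalling at the receptors: Smad7 acts on TGF-β and BMP receptors and Smad6 mainly on BMP receptors. Smad7 (ENSMUSG00000025880, chromosome 18) fell in both genotypes. It measured 3.68, 4.47 and 3.14 CPM in WT naive and 5.08, 6.26 and 4.9 CPM in Tim4KO naive libraries. After challenge it measured 1.5, 2.92 and 1.64 CPM in WT and 1.61, 1.85 and 2.02 CPM in Tim4KO, from 13 to 87 counts per library overall. No ID8 library reached the lowest naive library. In Tim4KO the log2 difference was -1.55 (SE 0.30), 2.93-fold lower, with an edgeR adjusted p of 0.00289, and it passed with each library left out. In WT it was -0.90 (SE 0.30, edgeR adjusted p = 0.0331). The WT call was lost in 11 of the 12 fits that left out 1 library, the exception being WT ID8 2, at -0.69 to -0.99 and an adjusted p of 0.0511 to 0.139. It was also lost without the filter (-0.78, adjusted p = 0.167), with the background covariate (-0.77, adjusted p = 0.213) and in a fit of the 2 groups alone (adjusted p = 0.0766). The background predicted over its exons was 0.00516 to 0.678 CPM, highest in WT naive 1.

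Smad6 (ENSMUSG00000036867, chromosome 9) was, with Smad7, among the lowest members per kb, with 6 to 33 counts per library. It measured 1.94 to 2.38 CPM in naive WT and 1.46 to 1.6 CPM in naive Tim4KO libraries, and 0.913 to 1.2 and 0.461 to 2.21 CPM in the challenged libraries of WT and Tim4KO. The WT challenge groups did not overlap, and the Tim4KO ID8 range held both Tim4KO naive and WT ID8 levels. The log2 difference was -1.03 in WT (SE 0.48, edgeR adjusted p = 0.11) and -0.31 in Tim4KO (SE 0.48, adjusted p = 0.71). These standard errors were the largest among the members.

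Tgfb2 (ENSMUSG00000039239, chromosome 1) encodes TGF-β2 and was, with Id2, the most abundant member per kb in naive cells. Its naive levels were 586, 579 and 617 CPM in WT and 600, 728 and 586 CPM in Tim4KO. After challenge they were 381, 362 and 242 CPM in WT and 436, 342 and 479 CPM in Tim4KO. All 6 ID8 libraries lay below all 6 naive libraries, with WT ID8 3 the lowest. In WT it fell from 594 ± 20 to 328 ± 75 CPM (SD, n = 3), a log2 difference of -0.86 (SE 0.17, edgeR adjusted p = 0.00188) that passed with each library left out and under all 8 other settings. In Tim4KO it fell from 638 ± 78.6 to 419 ± 69.9 CPM (SD, n = 3), a log2 difference of -0.61 (SE 0.17, edgeR adjusted p = 0.0246). The Tim4KO call was lost without Tim4KO naive 2 (-0.48, adjusted p = 0.15), Tim4KO ID8 1 (-0.62, adjusted p = 0.0748) or Tim4KO ID8 2 (-0.45, adjusted p = 0.162). Of its exons 124 bases overlap Gm29491 on the opposite strand, whose reads cannot be told apart without strand.

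Tgfb1 (ENSMUSG00000002603, chromosome 7) encodes TGF-β1, the main TGF-β of immune cells. It stayed between 128 and 172 CPM in all 12 libraries, and the naive and ID8 groups overlapped in both genotypes. The log2 difference after challenge was -0.04 in WT (SE 0.12, edgeR adjusted p = 0.831) and 0.09 in Tim4KO (SE 0.12, adjusted p = 0.653).

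The receptor genes had fitted differences below 0 after challenge in both genotypes, and none passed. Tgfbr1 (ENSMUSG00000007613, chromosome 4), the type I receptor, was at 62 to 73.3 CPM in WT naive and 48.5 to 60.6 CPM in WT ID8 libraries, groups that did not overlap (log2 difference -0.33, SE 0.14, edgeR adjusted p = 0.0741). Under other settings this difference passed with DESeq2 size factors in edgeR (-0.38, adjusted p = 0.0393), upper-quartile scaling (-0.58, adjusted p = 0.0029), DESeq2 (-0.38, adjusted p = 0.025) and a fit of the 2 groups alone (-0.43, adjusted p = 0.0351). In Tim4KO, Tgfbr1 was at 63.2 to 85.3 CPM in naive and 60.8 to 63 CPM in ID8 cells, again without overlap (-0.21, SE 0.14, adjusted p = 0.341). Tgfbr2 (ENSMUSG00000032440, chromosome 9), the type II receptor of TGF-β, was at 205 to 288 CPM in naive and 193 to 244 CPM in ID8 libraries, and its Tim4KO groups did not overlap. Its log2 differences were -0.21 in WT and -0.19 in Tim4KO (edgeR adjusted p = 0.248 and 0.374), and the WT one passed with upper-quartile scaling (-0.44, adjusted p = 0.0129). Bmpr2 (ENSMUSG00000067336, chromosome 1), a type II receptor of BMPs, was at 64.1 to 101 CPM in naive and 52.8 to 79.6 CPM in ID8 libraries, with differences of -0.23 and -0.35 (edgeR adjusted p = 0.333 and 0.233). With upper-quartile scaling 7 members passed in WT, the added ones being Id3, Tgfbr1 and Tgfbr2.

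**Figure D3:**
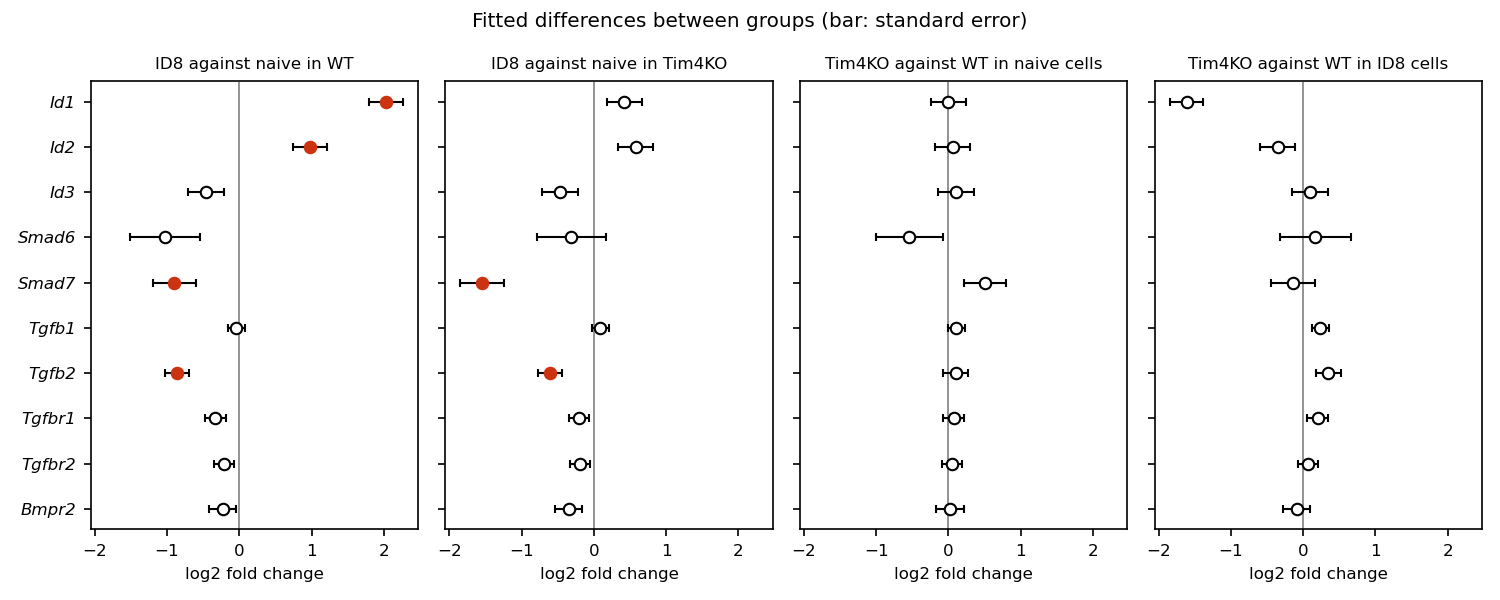
Log2 fold changes of the 10 genes with their standard errors in 4 comparisons, from 1 edgeR fit of all 12 libraries. Filled points passed an adjusted p under 0.05 in the challenge or naive comparisons, and the Tim4KO against WT comparison in ID8 cells carries no calls. After challenge Id1 and Id2 lie above 0 in WT (2.03 and 0.98), and Tgfb2 and Smad7 lie below 0 in both genotypes.

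Genotype was compared in naive cells to see whether the members differed before challenge. None of the 10 passed the edgeR test, beside 0.0439% of all tested genes, and 0 of them reached an unadjusted p under 0.05. DESeq2 and limma voom called none either. Id1 differed by -0.00 on the log2 scale (SE 0.24, edgeR adjusted p = 0.999) and Id2 by 0.06 (adjusted p = 0.987). Smad7 was higher in each Tim4KO naive library than in any WT naive library, at 3.77 ± 0.669 and 5.41 ± 0.737 CPM in WT and Tim4KO (SD, n = 3), a log2 difference of 0.51 (SE 0.29, edgeR adjusted p = 0.811). Smad6 was lower in each Tim4KO naive library, at 2.21 ± 0.238 and 1.51 ± 0.0739 CPM (-0.54, SE 0.47, adjusted p = 0.892). The median over the members was 0.06, against -0.00 over all tested genes.

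In challenged cells the genotype values are descriptions, since Id1 was known from this comparison, in which 0.0565% of all tested genes passed. Id1 was at 34.1 ± 8.1 CPM in WT and 11.2 ± 2.63 CPM in Tim4KO (SD, n = 3), 3.05-fold lower in Tim4KO, a log2 difference of -1.61 (SE 0.23). Every WT ID8 library (28.8 CPM or more) lay above every Tim4KO ID8 library (14.2 CPM or less). Leaving out 1 library at a time gave -1.40 to -1.81. The other 9 members lay between -0.35 (Id2) and 0.35 (Tgfb2). Of these, Tgfb1 (131 to 147 CPM in WT and 161 to 172 CPM in Tim4KO) and Tgfbr1 (48.5 to 60.6 and 60.8 to 63 CPM) did not overlap. Both were higher in Tim4KO. The Tgfbr1 groups nearly touched, at 60.6 and 60.8 CPM, and the share of all genes without overlap was not counted. The median over the members was 0.08, against 0.01 over all tested genes.

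Whether the challenge response differed between genotypes was asked with the interaction, the Tim4KO response minus the WT response. It passed for 0 of the 15943 genes in edgeR (0%), with 1186 genes at an unadjusted p under 0.05. DESeq2 called 11 genes and limma voom 0. Without WT ID8 3 edgeR called 368 of 17374 genes. The difference of responses for Id1 was -1.61 (SE 0.33), and it carries no p because it holds the genotype difference in challenged cells. For Smad7 it was -0.65 (edgeR adjusted p = 0.714), for Tgfb2 0.25 (SE 0.24, adjusted p = 0.788) and for Id2 -0.41 (adjusted p = 0.755). The calls of Id2 in WT and not in Tim4KO are therefore not shown to differ.

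The rest of the system was read from 67 further genes in 7 lists, of which 53 were tested. After challenge 17 passed in WT (5 higher, 12 lower), beside 31.8% of all genes (19.5% higher, 12.3% lower). In Tim4KO 8 passed (2 higher, 6 lower), beside 16.6% of all genes (11.5% higher, 5.06% lower). The counts per list given below stand beside the same shares. The 53 genes had a median log2 difference of -0.05 in WT and -0.17 in Tim4KO, against -0.04 and -0.05 over all tested genes. The Tim4KO count depended on single libraries: it was 2 without Tim4KO naive 2, 3 without Tim4KO ID8 3, 4 without Tim4KO naive 3 or Tim4KO ID8 2, 5 without WT naive 3 or Tim4KO ID8 1, and 13 without WT ID8 3. In naive cells none passed between genotypes, with 4 at an unadjusted p under 0.05 beside 999 of all 15943 genes, and DESeq2 and limma voom called 0. In ID8 cells 0 passed between genotypes in edgeR, with 11 at an unadjusted p under 0.05 beside 1935 of all 15943 genes, 2 called by DESeq2 (Neo1 among them) beside 265 genes in all, and 0 by limma voom. Without WT ID8 3 edgeR called 8 of them, beside 997 of 17374 genes in all, among them Bmpr1a, Cdkn2b, Eng, Ltbp3, Neo1, Pmepa1 and Tgfbi. In the interaction 0 passed, with 4 at an unadjusted p under 0.05 beside 1186 genes in all, and 0 called by DESeq2 or limma voom.

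Of the other ID and E-protein genes 1 of 4 tested passed in each genotype, which was Tcf4. Of 7 other ligand genes tested, 3 were lower in WT and 1 of these in Tim4KO. Inhba, which encodes an activin subunit, went from 2.06 to 0.56 CPM in WT (log2 difference -1.95, edgeR adjusted p = 0.00947) and from 1.87 to 0.664 CPM in Tim4KO (-1.48, adjusted p = 0.0497). The Tim4KO call of Inhba was lost in 9 of the 12 fits without 1 library (adjusted p up to 0.199), without the filter (adjusted p = 0.216), with limma voom (adjusted p = 0.0598), the replicate block (adjusted p = 0.0821) and the background covariate (adjusted p = 0.0502), and the WT call with the background covariate (-1.22, adjusted p = 0.142). Bmp7 had 7 to 12 counts in the WT naive and 0 or 1 in the WT ID8 libraries, and Gdf11 had 10 to 20 and 3 to 6. Their naive levels were 1.72 to 3.62 times the background predicted over their exons, and both calls were lost with the background covariate (adjusted p = 0.253 and 0.523). The Gdf11 call was also lost in 10 of the 12 fits without 1 library (adjusted p up to 0.189), without the filter (adjusted p = 0.103) and with the replicate block (-1.97, adjusted p = 0.0767), whereas Bmp7 passed in all 12 fits without 1 library.

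Of 10 other receptor and co-receptor genes tested, 1 was higher and 1 lower in WT and 0 passed in Tim4KO. Neo1, a co-receptor for BMPs, rose in WT from 6.38 ± 0.494 to 11.8 ± 1.51 CPM (SD, n = 3; log2 difference 0.89, edgeR adjusted p = 0.00629) and was at 4.65 and 6.13 CPM in Tim4KO naive and ID8 cells (0.41, adjusted p = 0.238). Acvr2b, a type II activin receptor, fell in WT from 5.23 to 2.39 CPM (-1.10, adjusted p = 0.0126), a call lost without WT ID8 2 (-0.81, adjusted p = 0.0599). Neo1 lost its call with the background covariate (0.74, adjusted p = 0.072).

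Of 5 receptor-regulated and common SMAD genes tested, 1 passed in WT and 0 in Tim4KO. Smad3, a mediator of TGF-β and activin signals, went from 75.3 ± 13.7 to 104 ± 11.7 CPM in WT (SD, n = 3; log2 difference 0.47, SE 0.14, edgeR adjusted p = 0.0191). Its call was lost without WT naive 1 (0.35, adjusted p = 0.085), without WT ID8 3 (0.39, adjusted p = 0.0654), with upper-quartile scaling (0.23, adjusted p = 0.152), with the background covariate (0.27, adjusted p = 0.288) and in a fit of the 2 groups alone (0.38, adjusted p = 0.121). In Tim4KO, Smad3 was at 102 and 118 CPM (0.21, adjusted p = 0.333). Smad4, the common partner, differed by -0.09 in WT (adjusted p = 0.616) and -0.24 in Tim4KO (adjusted p = 0.26), and passed with upper-quartile scaling in both (-0.34 and -0.36, adjusted p = 0.032 and 0.0399).

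Latency proteins and activators set how much TGF-β is released from its latent complex. Of 10 tested, 1 was higher and 2 lower in WT, and 1 was lower in Tim4KO. Ltbp1, which tethers latent TGF-β to the matrix, was at 1214, 2058 and 1862 CPM in WT naive and 913, 1005 and 1043 CPM in WT ID8 libraries. It was at 1819, 2466 and 2094 CPM in Tim4KO naive and 1269, 1302 and 1174 CPM in Tim4KO ID8 libraries. Neither pair of groups overlapped, with log2 differences of -0.79 in WT (SE 0.17, edgeR adjusted p = 0.00352) and -0.77 in Tim4KO (SE 0.17, adjusted p = 0.00777). The Tim4KO call of Ltbp1 was lost without Tim4KO naive 2 (-0.63, adjusted p = 0.0644). Itgav, the αv integrin chain that activates latent TGF-β, went from 62.3 to 93.5 CPM in WT (0.58, adjusted p = 0.0118) and was not called without WT naive 1 (0.44, adjusted p = 0.0541), with upper-quartile scaling (0.35, adjusted p = 0.0649) or in a fit of the 2 groups alone (0.49, adjusted p = 0.0646). Ltbp4 passed in WT with 2 to 22 counts per library (adjusted p = 0.045), at naive levels 1.79 to 2.95 times the background predicted over its exons, and lost the call in 8 of the 12 fits without 1 library. It was also lost with the replicate block (-1.99, adjusted p = 0.0703), the background covariate (-0.93, adjusted p = 0.435), no filter (adjusted p = 0.0557) and a fit of the 2 groups alone (adjusted p = 0.084).

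Of 11 inhibitors and feedback genes tested, 1 passed in each genotype. Smurf2, a ubiquitin ligase that acts with SMAD7 on receptors, was at 29.6 and 22.1 CPM in WT naive and ID8 cells (-0.42, edgeR adjusted p = 0.0289) and at 34.1 and 23.6 CPM in Tim4KO (-0.53, adjusted p = 0.0147). Its WT call was lost in 11 of the 12 fits without 1 library (adjusted p up to 0.171) and its Tim4KO call in 5 (adjusted p up to 0.102). Both were lost without the filter (adjusted p = 0.288 and 0.166), and the WT call with the background covariate (adjusted p = 0.124).

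Of the known SMAD target genes outside the members 6 were tested and all 6 passed in WT, beside 31.8% of all genes. Of these 2 were higher (19.5% of all genes) and 4 lower (12.3% of all genes). In Tim4KO 2 were higher (11.5% of all genes) and 2 lower (5.06% of all genes). Smad6 and Smad7 are known targets too and were taken out of this list because they are members. Of that pair Smad7 passed in both genotypes, with a WT call that most fits without 1 library lost, and Smad6 passed in neither. Cdkn1a, which encodes the cell cycle inhibitor p21, rose in WT from 44.4 ± 7.02 to 102 ± 5.39 CPM (SD, n = 3; log2 difference 1.21, edgeR adjusted p = 0.000235) and in Tim4KO from 47 ± 12.3 to 77.2 ± 10.6 CPM (0.71, adjusted p = 0.014). The Tim4KO call of Cdkn1a was lost without Tim4KO naive 2 (0.53, adjusted p = 0.0591) or Tim4KO ID8 3 (0.63, adjusted p = 0.0593).

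The SMAD target genes that fell included Cdkn2b, which encodes the inhibitor p15 of cyclin-dependent kinases. Its levels were 21.1 to 22.5 CPM in WT naive and 3.57 to 9.49 CPM in WT ID8 libraries (-1.69, SE 0.28, edgeR adjusted p = 0.000496), and 15.7 to 23.8 and 8.21 to 12.4 CPM in Tim4KO (-0.84, adjusted p = 0.0454, lost in 9 of the 12 fits without 1 library, adjusted p up to 0.249). Runx1, a transcription factor of blood cells, fell by 0.97 on the log2 scale in both genotypes (adjusted p = 0.000672 and 0.00127), with naive libraries at 30.6 to 44.8 CPM and ID8 libraries at 15.6 to 22.7 CPM. Tgfbi, a matrix protein gene named for its induction by TGF-β, fell in WT from 459 ± 18.3 to 248 ± 74.1 CPM (SD, n = 3; -0.89, adjusted p = 0.00188) and was at 468 and 370 CPM in Tim4KO (-0.34, adjusted p = 0.218). Klf10, an early TGF-β response gene, went from 342 to 251 CPM in WT (-0.45, adjusted p = 0.0146; not called in 4 of the 12 fits without 1 library, adjusted p up to 0.122) and from 320 to 248 CPM in Tim4KO (-0.37, adjusted p = 0.0573). The WT call of Klf10 was lost without the filter (-0.34, adjusted p = 0.151), while its Tim4KO difference passed in 5 of the 8 other settings (-0.40 to -0.48, adjusted p = 0.0051 to 0.033). Tgfbi passed in Tim4KO in a fit of the 2 groups alone (-0.37, adjusted p = 0.0303). Known targets of the pathway thus lay on both sides of 0 after challenge in each genotype.

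**Figure D4:**
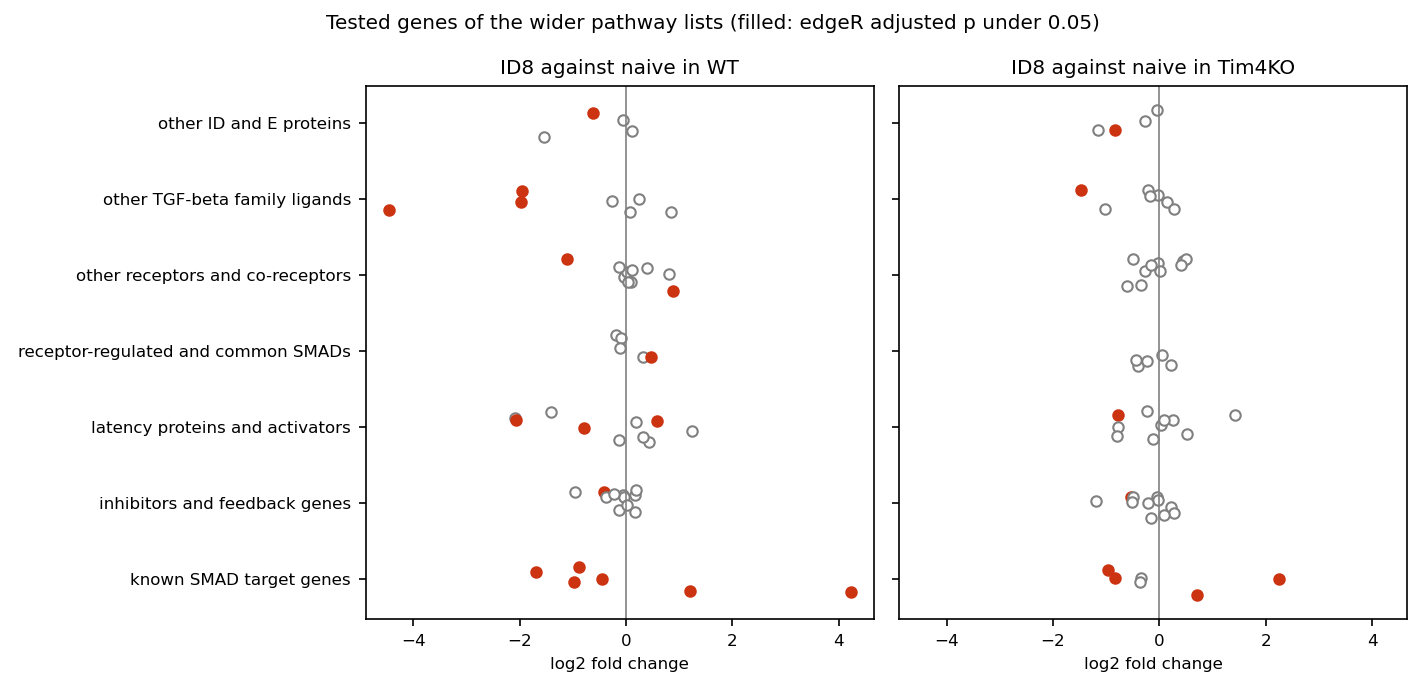
Log2 fold changes after challenge of the 53 tested genes of the 7 lists in WT and Tim4KO, 1 point per gene, from edgeR, with filled points at an adjusted p under 0.05. In WT 17 points are filled and in Tim4KO 8, and the SMAD target genes lie on both sides of 0 (Cdkn1a at 1.21 and Cdkn2b at -1.69 in WT).

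The genes with the pattern most like those of Id1, Id3 and Tgfb2 were taken by Pearson correlation of log2(CPM + 1) over the 12 libraries, among 9726 genes with a mean of at least 50 counts. The libraries share condition and depth, so these values describe likeness and carry no p. For Id1 they were Eif1ad (r = 0.972), Rbm17 (0.971) and Hnrnpa1 (0.968), which work in translation or RNA processing. Hnrnpa1 was at 156 ± 10.6 and 160 ± 14.8 CPM in WT and Tim4KO naive cells and at 328 ± 45.8 and 213 ± 13.2 CPM after challenge (SD, n = 3). For Id3 they were Zfp623 (0.896), Tmem110 (0.887) and Orai3 (0.884). For Tgfb2 they were Trps1 (0.956), a transcriptional repressor gene, Apoe (0.953), which encodes apolipoprotein E, and the non-coding RNA gene Peg13 (0.953).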

How the data were processed

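Per the labels' protocols, the RNeasy micro kit gave the RNA and the SMART-Seq mRNA LP kit the libraries. The authors deposited raw counts of reads per Ensembl gene for 12 libraries, read as raw because they are whole and their totals differ. The submitters' processing notes name FastQC, STAR 2.5, mm10 and GRCm39, without roles. The counter, the annotation and the handling of strand are not given in the sources used here. Reads carry PCR duplicates, so counting floors cover counting error only. Of 57010 identifiers, 52029 had a name in GENCODE vM21, which also gave exon lengths. All count columns were matched to libraries by name.

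The counts were fitted with edgeR 4.0.16 in R 4.3.3: filterByExpr, TMM, 1 mean per group over all 12 libraries, robust quasi-likelihood F tests, 8 residual degrees of freedom, two-sided, Benjamini-Hochberg adjusted over the 15943 tested genes, called under 0.05. Genotype was compared within each condition, challenge within each genotype, and the interaction between them. Each standard error (SE) was back-calculated as the absolute log2 difference divided by the square root of its F value, so it is approximate. The script was tested on simulated data. Alternatives were DESeq2 size factors, upper-quartile scaling, no filter, DESeq2 1.42.0, limma 3.58.1 (voom), a replicate block, the 2 groups alone, each library left out, and, chosen after seeing the data, the log2 background level as a covariate. Background was the sum of 1410 olfactory and vomeronasal receptor genes with a mean of at most 1 CPM, scaled by exon length.

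The members and lists were chosen with earlier results of these data known. From each list the called genes with the smallest p, up to 3, are named, with Tcf3, Tcf4, Tcf12 and Smad4. Tgfbi and Klf10, the genes listed beside the fit without WT ID8 3, and members of counts by DESeq2 were named after their values were seen. The values of 1 gene of the SMAD target list are not reported here, and it stays in the counts.

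Deviations from the group means were correlated between same-numbered libraries. For the 3 pairs of naive and ID8 libraries in WT the correlations were 0.101, 0.103 and 0.306. WT naive 1 and Tim4KO naive 1 correlated at 0.336. These values do not settle whether the numbers pair the libraries. The main fit used no pairing, and the replicate block is given as an alternative.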

Additional observations from a re-analysis of the deposited data

How the results depend on the processing

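Of the results for single genes none changed direction after having been called. With upper-quartile scaling 7 members passed in WT after challenge, and with the background covariate 2 did (Id1 and Tgfb2), against 4. Of the wider genes, 9 passed in WT with the background covariate against 17, as the count over all genes went from 5067 to 3473. In Tim4KO 14 passed with upper-quartile scaling, 13 with DESeq2 and 17 in a fit of the 2 groups alone, against 8, beside 2716, 3161 and 3827 genes in all, against 2642. Without the filter 1 wider gene (Tgfbr3) passed between genotypes in naive cells and 1 (Neo1) in ID8 cells, where DESeq2 called 2 and the background covariate 1. Calls of members between genotypes in ID8 cells and in the interaction are not given, since Id1 was chosen on that difference. With 1 library left out the members called ran from 3 to 4 in WT and from 1 to 3 in Tim4KO after challenge. The wider genes called ran from 0 to 8 between genotypes in ID8 cells (1 to 997 over all genes). After challenge they ran from 13 to 22 in WT (3362 to 7230 over all genes) and from 2 to 13 in Tim4KO (1222 to 3595 over all genes). In the interaction they ran from 0 to 1 (Cdkn2b, without WT ID8 3), beside 0 to 368 over all genes. The cause of these changes was not tested. Upper-quartile scaling moved the median log2 difference of all genes from -0.04 to -0.28 in WT and from -0.05 to -0.17 in Tim4KO. With the replicate block 4 members were called in WT and 2 in Tim4KO, and 15 and 8 wider genes. The block lost the calls of Gdf11 and Ltbp4 in WT and of Inhba in Tim4KO, where it added Eng, and it changed no other call after challenge. Over all groups the correlation of deviations was above 0.1 in 6 of 18 same-numbered pairs, and 4 of 12 libraries correlated best with their own number. The interaction has no fit of the 2 groups alone. Depth limits Smad6 and Smad7 most, with 6 to 87 counts per library.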
